A study of Mus musculus with 6 samples.

Results

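The genes described here mostly encode enzymes and complex subunits that reshape or mark chromatin, though Hdac6, Sirt3 and Sirt5, among others, act mainly elsewhere. They were chosen by symbol, taking every row whose name begins with Smarc, Arid1 to Arid5, Chd and a digit, Kdm1 to Kdm8, Hdac and a digit, Sirt1 to Sirt7 or Setd2 to Setd8, together with Ezh1, Ezh2, Eed, Suz12, Dnmt1 and Tet1 to Tet3. This gave 84 of the 22740 rows of the count table, all annotated as protein coding, and 79 of them had enough counts to be tested. They were compared between the high-pigmented (HPC) and low-pigmented (LPC) fractions that flow cytometry separated from B16-F3, a mouse melanoma line grown in culture, with 3 RNA libraries per population. No treatment or engineered allele is named in the labels, and both populations come from the same line. Nothing in the labels says that the 3 libraries of a population stem from separate cultures or sorting runs. The p-values therefore reflect library-to-library spread alone, and that spread may be technical.

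DNA in the nucleus is wrapped around histones, and ATP-driven remodelers of the SWI/SNF, ISWI and CHD families slide, evict or space the resulting nucleosomes. Other enzymes write or erase chemical marks: lysine demethylases remove methyl groups from histones, deacetylases and sirtuins remove acetyl groups, PRC2 and SETD enzymes add methyl groups, and DNMT1 and the TET enzymes maintain or oxidise methylated cytosine. In pigment cells, SWI/SNF ATPases are known partners of the lineage factors MITF and SOX10, and the demethylase KDM5B is known as a marker of a slow-cycling state in human melanoma.

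The libraries held between 14695822 and 22186743 counts, of which the chosen genes took 0.817% to 0.889%. Tyr, which encodes the pigment enzyme tyrosinase, was at 855 to 992 CPM (counts scaled to a common library size) in HPC and at 62.6 to 264 in LPC, with no overlap, in the direction of the sort labels. The 7 melanocyte markers summed to between 32468 and 36210 CPM in every library. Immune markers summed to 8.61 to 15.6 in HPC and 4.08 to 9.47 in LPC, mostly Cd68, with Ptprc and Cd3e at 0 in all 6 libraries. The 4 fibroblast markers summed to 5.68 to 8.32 in HPC and 10.3 to 17.1 in LPC, mostly Pdgfra and Col1a1, while Dcn had 1 count in all. The 3 endothelial markers summed to 0.135 to 0.304 in HPC and 0.0672 to 0.213 in LPC, all from Pecam1, with Cdh5 and Kdr at 0. The 2 keratinocyte markers, Krt5 and Krt14, were at 0 throughout. Whether cells other than melanoma cells had a part in the differences below was not tested. In bulk RNA, a difference in a share of cells and a difference in RNA per cell cannot be told apart.

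Few differences between the populations were called among the chosen genes. Without a replicate term, edgeR's quasi-likelihood test called 0 of the 79 at an adjusted p under 0.05. It called 5 of 11921 genes in all (0.0419%), which were all lower in HPC (0.0419% lower, 0.0% higher). Tyr was thus not called either, although its HPC and LPC libraries did not overlap. The 0 calls among the 79 therefore do not show that differences are absent. At an unadjusted p under 0.05 the same test passed 3 of the 79, Chd9 and Kdm2b higher and Chd7 lower in HPC, against 9.37% of all genes (5.06% higher and 4.31% lower). The limma-voom test also called 0 of the 79 (0.0419% of all genes) and passed 3 at an unadjusted p under 0.05 (9.68% of all genes).

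Adding the replicate number as a blocking term gave more calls. With this replicate block, edgeR's quasi-likelihood test called 2 of the 79, Chd9 higher and Chd7 lower in HPC, where 2.52% of all genes were called (1.43% higher and 1.1% lower). DESeq2 without the block called 2 of the 79, also 1 in each direction, against 1.88% of all genes (1.02% higher and 0.856% lower), and passed 4 at an unadjusted p under 0.05 (9.69%). DESeq2 with the block, an alternative chosen after the values were seen, called 2 against 4.19% of all genes. A count of 2 in 79 is a share of 2.53%, near the share of all genes called in these fits, so it is not a result about chromatin genes as a class. At an unadjusted p under 0.05 the blocked edgeR fit passed 9 members, 6 higher and 3 lower in HPC, or 11.4% against 18.8% of all genes (10.1% higher and 8.66% lower). These were Chd3, Chd9, Smarca2, Kdm2b, Arid3a and Hdac6, higher, and Chd7, Smarcd3 and Sirt1, lower.

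**Figure D1:**
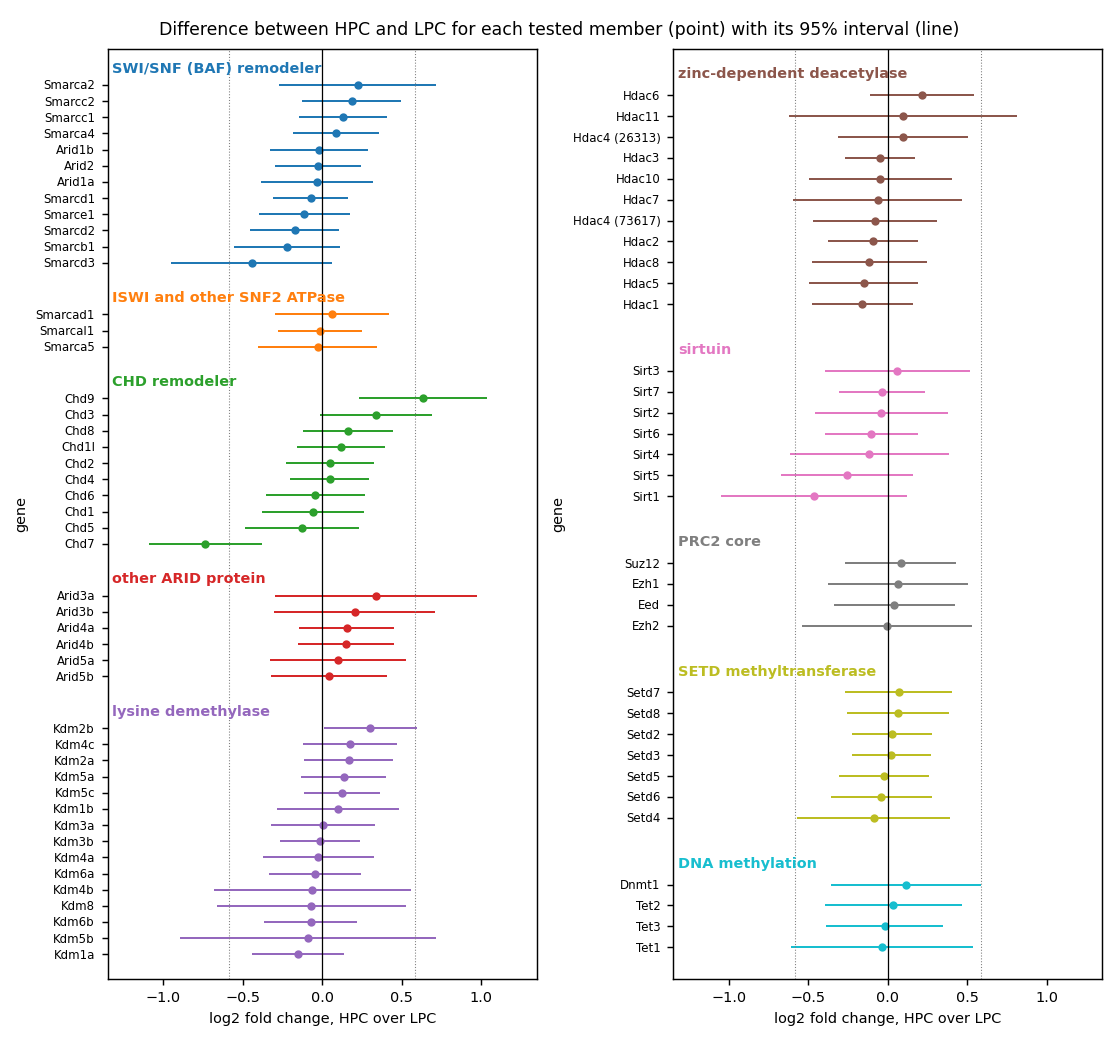
Log2 fold change of each of the 79 tested genes, HPC over LPC, with the 95% interval of edgeR's quasi-likelihood fit without the block, arranged by role; dotted lines mark a 1.5-fold difference in either direction. Chd9 at 0.63 and Chd7 at -0.73 lie outside the dotted lines and the others lie between them.

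Of the 79 tested genes, 37 had a positive log2 fold change (HPC over LPC) and 42 a negative one, while 48.2% of all genes were positive. Their median was -0.01 and that of all tested genes was also -0.01. Only Chd7 and Chd9 differed by at least 1.5-fold, as did 7.41% of all genes. The HPC and LPC libraries did not overlap in 5 members, a share of 6.33% where all genes gave 14.3%. Chd9, Kdm2b and Kdm5c lay higher in HPC (7.16% of all genes did so), and Chd7 and Sirt6 lay higher in LPC (7.18%). Equally numbered HPC and LPC libraries differed in the same direction in 3 of 3 pairs for 16 members higher in HPC (19.6% of all genes) and 13 lower (21.3%).

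The fits also give intervals for the size of the differences. Like the p-values, they reflect library-to-library spread alone, and that spread may be technical. For 62 of the 79 members, the 95% interval of the log2 fold change lay wholly within 1.5-fold in either direction, a count chosen after the values were seen. This was 78.5% of the members, and it held for 56.2% of all genes. With the replicate block it held for 74 members, or 93.7%, and for 69.8% of all genes. The width of an interval depends on a gene's counts, and the members were not matched to other genes by expression level. These shares are not a result about chromatin genes as a class. The 17 members whose interval without the block reached past 1.5-fold were Chd3, Chd7, Chd9, Tet1, Smarca2, Smarcd3, Kdm2b, Kdm4b, Kdm5b, Kdm8, Arid3a, Arid3b, Sirt1, Sirt4, Sirt5, Hdac7 and Hdac11. For these the spread between libraries leaves room for a difference of that size.

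The CHD family, most of whose members carry paired chromodomains beside a helicase motor, held both genes called with the block. Chd9, on GRCm38 chr8:90828352-91054516 on the plus strand, was at 166, 149 and 159 CPM in the HPC libraries and at 104, 76.4 and 125 in the LPC libraries, here and below in the order of replicates 1, 2 and 3. Every HPC library lay above every LPC library, and LPC replicate 2 was the lowest of the 6. The means were 158 ± 8.84 and 102 ± 24.3 CPM (SD, n = 3 each), a log2 fold change of 0.63 (SE 0.17), or 1.55-fold higher in HPC with a 95% interval of 1.18 to 2.04. Its adjusted p was 0.28 by edgeR's quasi-likelihood test without the block, 0.044 by the same test with the block, and 0.042 by DESeq2 without it. The 3 pairs differed by 0.67, 0.96 and 0.35 on the log2 scale. With pair 2 left out, the blocked edgeR log2 fold change was 0.51 and its adjusted p 0.36, but that smaller fit called 0 of all genes. Without pair 3 the call held, at 0.82. Length and GC content of each gene's longest annotated transcript accounted for 13% of the variance of the deviations in LPC replicate 2. In the other 5 libraries they accounted for 2.62% to 6.68%. Since the libraries read transcript ends, these are not the length and GC content of the sequenced fragments. With this length and GC trend removed, the log2 fold change of Chd9 was 0.51. Its adjusted p was then 0.24 by edgeR without the block and 0.044 with it. The annotated genes Gm45640 and Gm45643 on the same strand and Gm45641 and Gm6658 on the opposite strand overlap Chd9, and since the use of strand in counting is not given, their reads cannot be told apart from it with certainty.

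Chd7, on chr4:8690406-8867659 on the plus strand with no overlapping annotated gene, encodes a remodeler whose human counterpart is mutated in CHARGE syndrome, a developmental disorder that affects neural crest derivatives. It was at 10.9, 9.02 and 10.3 CPM in the HPC libraries and at 15.9, 17.0 and 17.5 in the LPC libraries, from 194 to 203 counts in HPC and 235 to 321 in LPC. All 3 HPC libraries lay below all 3 LPC libraries. The means of 10.1 ± 0.959 and 16.8 ± 0.827 CPM (SD, n = 3 each) gave a log2 fold change of -0.73 (SE 0.15), or 1.66-fold higher in LPC. The adjusted p was 0.18 by edgeR's quasi-likelihood test without the block, 0.042 with it, and 0.0054 by DESeq2 without the block. The pairs differed by -0.54, -0.90 and -0.75. In the blocked edgeR fit, the log2 fold change was -0.65 without pair 2 (adjusted p 0.38), where 0 of all genes were called, and -0.73 without pair 3 (adjusted p 0.15), where 196 were called and Chd7 was not.

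**Figure D2:**
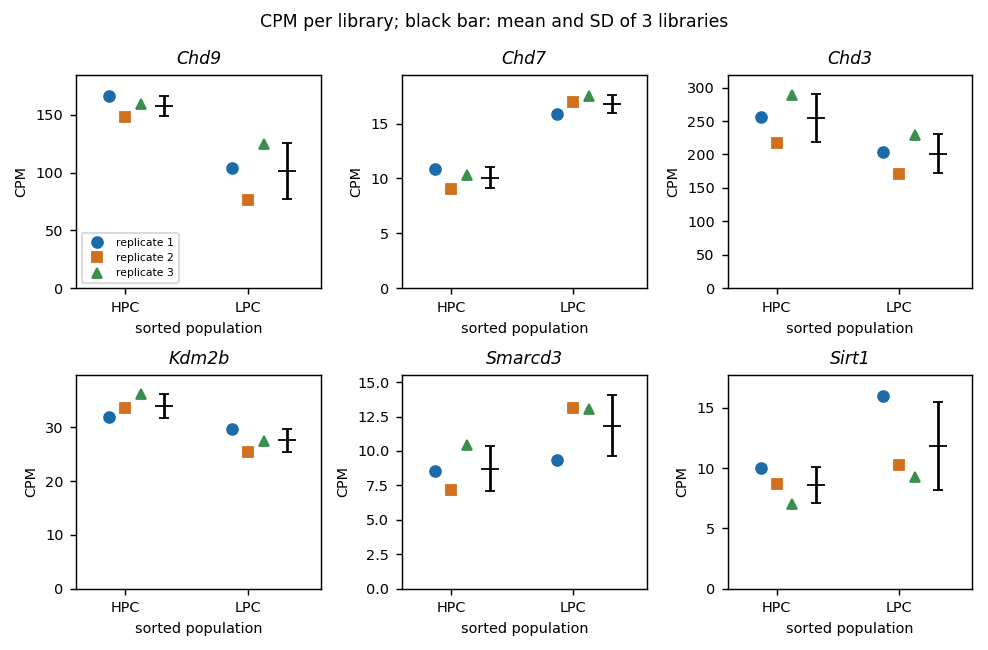
CPM of Chd9, Chd7, Chd3, Kdm2b, Smarcd3 and Sirt1 in each of the 3 HPC and 3 LPC libraries, with the mean and SD of each population. The populations separate in Chd9, Chd7 and Kdm2b and overlap in Chd3, Smarcd3 and Sirt1.

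Chd3, the ATPase of a form of the NuRD complex that joins remodeling to deacetylation, was at 257, 218 and 289 CPM in HPC and 204, 171 and 229 in LPC. The populations overlapped, yet each HPC library exceeded the LPC library of its number by a similar amount, with log2 differences of 0.33, 0.35 and 0.34. The fitted log2 fold change was 0.34 (SE 0.15), and its adjusted p by edgeR's quasi-likelihood test was 0.55 without the block and 0.091 with it. Chd4, another NuRD ATPase, stood at 876, 846 and 957 CPM in HPC and 850, 851 and 895 in LPC. Its log2 fold change was 0.05, with a 95% interval of -0.20 to 0.29. The remaining 6 members of the family, Chd1, Chd1l, Chd2, Chd5, Chd6 and Chd8, lay between -0.13 (Chd5) and 0.16 (Chd8).

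RefSeq promoter windows of 300 bases, each lying mostly upstream of a start site annotated in RefSeq, were examined for the chosen genes, and 66 of their 83 symbols matched 87 windows. One window of Chd9, the member with the largest positive fold change, is printed, GRCm38.p6 chr8:90828585-90828884 on the plus strand, with capitals marking CCGCCC, the reverse complement of the GC-box motif GGGCGG, and CCATCTT, a form of the YY1 motif CCATNTT.
Chd9: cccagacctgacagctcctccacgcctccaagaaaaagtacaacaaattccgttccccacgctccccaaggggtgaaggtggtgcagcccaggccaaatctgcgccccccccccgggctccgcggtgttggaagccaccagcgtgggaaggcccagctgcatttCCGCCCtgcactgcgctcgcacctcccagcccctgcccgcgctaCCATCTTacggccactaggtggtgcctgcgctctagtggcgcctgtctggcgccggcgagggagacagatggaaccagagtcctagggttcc
This window had a GC content of 65.7% and 19 CpG dinucleotides. A second Chd9 window, starting at position 90931999, held none of the 4 motifs searched. Both windows lie inside the GENCODE span of Chd9 given above, whose start is upstream of them. Chd7 has no entry in the table used.

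The windows of the chosen genes had a median GC content of 62.0% and a median of 23 CpG, against 52.7% and 7 in all 32851 RefSeq windows, which include genes not expressed in these cells. Searched on both strands, GGGCGG was in 64.4% of the members' windows and 35.7% of all, and CCATNTT in 16.1% of both. Those motifs were chosen after the Chd9 window had been read. The E-box CACGTG was in 4.60% of the members' windows and 7.15% of all, and CATGTG, the core of the M-box bound by MITF, in 9.20% and 14.2%. A match is a description of letters in the window and not a bound site.

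SWI/SNF complexes, also called BAF, carry either SMARCA4 or SMARCA2 as motor with a set of shared subunits, and 12 of their genes were tested. Of these, 4 had a positive and 8 a negative log2 fold change, with a median of -0.03, and none was called by edgeR with or without the block or by DESeq2 without the block. The median was -0.11 with the length and GC trend removed, -0.11 without LPC replicate 3 and 0.052 without LPC replicate 1, so it has no settled direction. The motor gene Smarca4 was at 412, 376 and 394 CPM in HPC and 408, 372 and 332 in LPC. That is a log2 fold change of 0.09 with a 95% interval of -0.18 to 0.35. Smarca2, the alternative motor, was at 92.6, 65.6 and 99.7 in HPC and 70.8, 57.4 and 93.1 in LPC, a log2 fold change of 0.22 that was positive in 3 of 3 pairs and whose adjusted p was 0.81 by edgeR without the block and 0.27 with it. Its libraries numbered 2 were the lowest and those numbered 3 the highest in both populations.

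Among the accessory subunits, Smarcd3 had the largest difference. It was at 8.53, 7.17 and 10.4 CPM in HPC and 9.31, 13.2 and 13.1 in LPC, with HPC replicate 3 above LPC replicate 1, so the populations overlapped. Its log2 fold change was -0.44 (SE 0.22), with an adjusted p of 0.61 by edgeR's quasi-likelihood test without the block and 0.24 with it. Chpf2 and Mir671 overlap Smarcd3 on the opposite strand. Overlaps are not listed here for every member. Others, such as Chd3, Kdm1a, Sirt1 and Sirt3, also overlap annotated genes, with the same limit as for Chd9. The core subunit gene Smarcb1 had a log2 fold change of -0.22 and Smarcd2 of -0.17, while Smarcc2, a scaffold subunit, had 0.19. Arid1a, which encodes the DNA-binding subunit of the canonical complex, was at 253, 239 and 213 CPM in HPC and 293, 215 and 212 in LPC, a log2 fold change of -0.03. The Arid1b and Arid2 genes, which encode alternatives to it, had -0.02 and -0.03.

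Of the ISWI and other SNF2 ATPases, 3 of 4 were tested: Smarca5, the ISWI motor, Smarcad1 and Smarcal1, a helicase that rejoins DNA strands at stalled forks. Their log2 fold changes were -0.03, 0.06 and -0.01, and each pair of groups overlapped. Smarca1, the other ISWI motor, had 0 to 2 counts in every library and was not tested.

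The 6 tested ARID genes outside SWI/SNF, which share an AT-rich DNA-binding domain, were all positive, from 0.04 (Arid5b) to 0.34 (Arid3a), with a median of 0.15. None was called by edgeR with or without the block or by DESeq2 without the block, and with the length and GC trend removed Arid5b became -0.059 and the median 0.075. Arid3a was at 10.5, 11.5 and 16.7 CPM in HPC and 7.02, 10.3 and 13.3 in LPC, higher in HPC in 3 of 3 pairs while the populations overlapped. Its 95% interval was -0.29 to 0.96, and its adjusted p 0.78 by edgeR's quasi-likelihood test without the block. Arid3c, at 1 to 4 counts, was not tested.

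Lysine demethylases fall into the LSD family (Kdm1) and the JmjC family, and 15 of 17 were tested, 7 positive and 8 negative with a median of -0.01, which was 0.093 without LPC replicate 3. Kdm2b, which encodes an H3K36 demethylase that also recruits a Polycomb complex to CpG islands, was at 31.9, 33.6 and 36.3 CPM in HPC and 29.7, 25.5 and 27.5 in LPC. Its populations did not overlap, with means of 33.9 ± 2.20 and 27.6 ± 2.09 (SD, n = 3 each). The log2 fold change was 0.30 (SE 0.12), with an adjusted p of 0.51 by edgeR's quasi-likelihood test without the block and 0.21 with it. Rnf34 and A930024E05Rik overlap Kdm2b on the opposite strand, and Gm43411 and Gm44574 on its own.

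Kdm5c, an X-linked gene for an H3K4 demethylase, also separated the populations, at 104, 104 and 114 CPM in HPC and 103, 98.0 and 94.4 in LPC. The gap was small, with a log2 fold change of 0.12 and an adjusted p of 0.78 by edgeR without the block. Kdm1a, which encodes LSD1, the H3K4 demethylase of the CoREST complex, was at 109, 118 and 132 in HPC and 118, 139 and 143 in LPC. It was lower in HPC in 3 of 3 pairs, by a fitted log2 fold change of -0.15, with an adjusted p of 0.77 by edgeR without the block. Kdm2a stood at 0.17. Kdm4d, at 1 to 4 counts, and Kdm5d, at 0 in all 6 libraries, were not tested.

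Kdm5b, the slow-cycling marker named above, varied more between replicates than between populations. It was at 62.7, 54.9 and 83.2 CPM in HPC and at 36.1, 68.6 and 109 in LPC. The LPC libraries spanned a 3.02-fold range that contained all 3 HPC libraries. The log2 fold change was -0.09 with a 95% interval of -0.89 to 0.71, and the pairs differed by 0.80, -0.32 and -0.39. That interval reaches past 1.5-fold in both directions, so these libraries do not settle a direction for Kdm5b.

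Zinc-dependent histone deacetylases remove acetyl groups with a metal ion, and 11 of their 12 rows were tested, 3 positive and 8 negative with a median of -0.06, which became -0.099 when LPC replicate 1 was left out and -0.029 when LPC replicate 2 was. Hdac1, a catalytic subunit of the Sin3, NuRD and CoREST complexes, was at 23.4, 29.8 and 28.2 CPM in HPC and 30.4, 31.8 and 28.7 in LPC, a log2 fold change of -0.16 with an adjusted p of 0.79 by edgeR without the block. Hdac3, the catalytic subunit of NCoR complexes, was bounded most closely of the group, at -0.05 with a 95% interval of -0.26 to 0.17. Hdac6, a mostly cytoplasmic tubulin deacetylase, was at 52.4, 54.7 and 67.7 in HPC and 45.6, 48.8 and 56.1 in LPC. It was higher in HPC in 3 of 3 pairs with overlapping populations, a log2 fold change of 0.22 and an adjusted p of 0.70 by edgeR without the block. Hdac4 has 2 rows with different identifiers, at 0.10 and -0.08, and the second identifier is not in GENCODE M21. Hdac9, at 0 to 5 counts, was not tested.

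Sirtuins are deacetylases and related deacylases that use NAD+, and all 7 were tested, 1 positive and 6 negative with a median of -0.10. That median was -0.0093 with the length and GC trend removed, -0.0019 without HPC replicate 2 and -0.18 without LPC replicate 1. Sirt1, a mainly nuclear enzyme, was at 9.99, 8.70 and 7.02 CPM in HPC and 16, 10.2 and 9.24 in LPC. It was lower in HPC in 3 of 3 pairs, but HPC replicate 1 lay above LPC replicate 3, so the populations overlapped. The log2 fold change was -0.46 (SE 0.25), with an adjusted p of 0.64 by edgeR's quasi-likelihood test without the block and 0.19 with it. Sirt6, another nuclear sirtuin, was at 19.5, 18.9 and 19.6 in HPC and 20.6, 21.4 and 20.3 in LPC. Its populations did not overlap, at a log2 fold change of -0.10 and an adjusted p of 0.86 by edgeR without the block. Among the mitochondrial sirtuin genes, Sirt3 had 0.06 and Sirt5 -0.26.

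PRC2 places methyl groups on H3K27, and its core genes are Ezh2 and Ezh1, the alternative catalytic subunits, with Eed and Suz12. Ezh2, much studied in melanoma, was at 226, 261 and 187 CPM in HPC and 299, 222 and 156 in LPC. The highest and the lowest of the 6 libraries were both LPC, and the log2 fold change was -0.0041 with a 95% interval of -0.53 to 0.52. Suz12 was at 251, 330 and 256 in HPC and 297, 265 and 231 in LPC, a log2 fold change of 0.08. Ezh1 had 0.07 and Eed 0.04. None of the 4 was called by edgeR with or without the block or by DESeq2 without the block.

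The 7 SETD genes, which encode SET-domain methyltransferases, lay between -0.09 (Setd4) and 0.07 (Setd7). Setd2, which writes H3K36 trimethylation, had 0.03, and Setd8, named Kmt5a in GENCODE and known for H4K20 monomethylation, had 0.06. For DNA methylation, Dnmt1, the maintenance methyltransferase, was at 408, 495 and 423 CPM in HPC and 528, 403 and 295 in LPC. Its pairs disagreed in direction, at -0.37, 0.30 and 0.52, and the fitted log2 fold change was 0.11 with a 95% interval of -0.35 to 0.58. Tet2, which oxidises 5-methylcytosine, was at 65.5, 55.4 and 60.7 in HPC and 58.8, 43.9 and 74.6 in LPC, a log2 fold change of 0.03. Tet1 and Tet3 had -0.04 and -0.02.

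**Figure D3:**
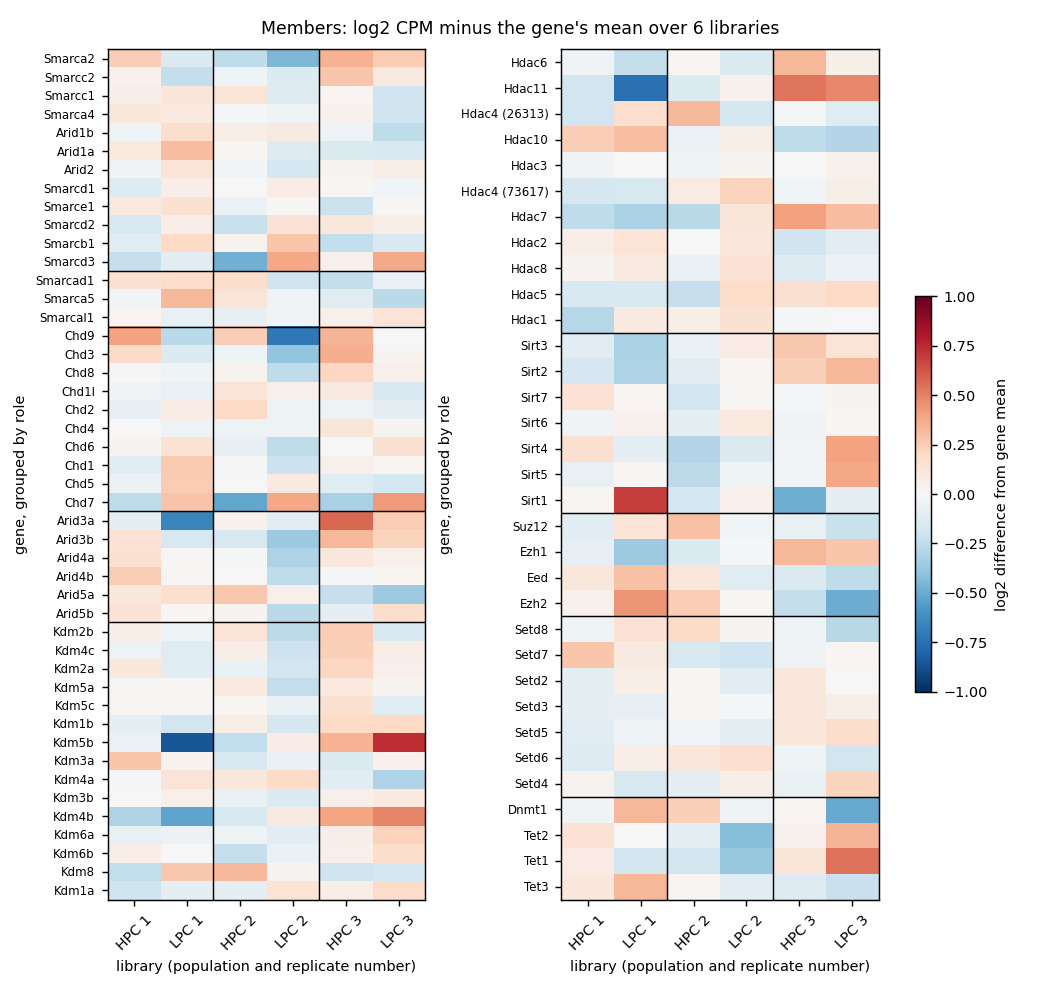
Log2 CPM of each tested member minus its mean over the 6 libraries, with genes in rows grouped by role and equally numbered HPC and LPC libraries side by side. Kdm4b and Hdac11 are highest in number 3 and lowest in number 1 in both populations, while Chd7 is below its mean in all 3 HPC libraries and above it in all 3 LPC libraries, and Chd9 the reverse.

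Several members followed the replicate number more than the pigment sort. What the number marks is not given in the labels, and the test of it was chosen after the values were seen. In the blocked edgeR fit, the replicate number term passed an adjusted p of 0.05 for 1 of 79 members, Kdm4b (adjusted p 0.042), and for 3.18% of all genes. At an unadjusted p under 0.05 it passed 20 members, or 25.3%, where all genes also gave 25.3%. DESeq2's likelihood ratio test of the same term called 5 members against 7.83% of all genes. The highest and the lowest library carried the same numbers in both populations for 27 members, 34.2% against 30.1% of all genes. These shares lie near the background, so they are not a result about chromatin genes as a class.

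The 5 members called by DESeq2 for the number were Kdm4b, an H3K9 and H3K36 demethylase, Hdac11, Kdm5b, Smarca2 and Ezh2. Kdm4b was at 85.4, 94.7 and 138 CPM in HPC and 72.9, 112 and 148 in LPC, with number 3 highest and number 1 lowest in both. Hdac11, the only class IV deacetylase gene, had the same order, at 36.9, 38.2 and 60.8 in HPC and 25.0, 43.3 and 58.7 in LPC. In Kdm5b the highest library was also number 3 in both populations, but the lowest was number 2 in HPC and number 1 in LPC. Ezh2 was lowest in number 3 in both populations and highest in number 2 in HPC and in number 1 in LPC. The adjusted p by DESeq2's likelihood ratio test was 0.00031 for Kdm4b, 0.0014 for Hdac11, 0.0095 for Kdm5b, 0.013 for Smarca2 and 0.030 for Ezh2. For HPC against LPC the log2 fold changes of Kdm4b and Hdac11 were -0.06 and 0.10, inside the spread between numbers.

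**Figure D4:**
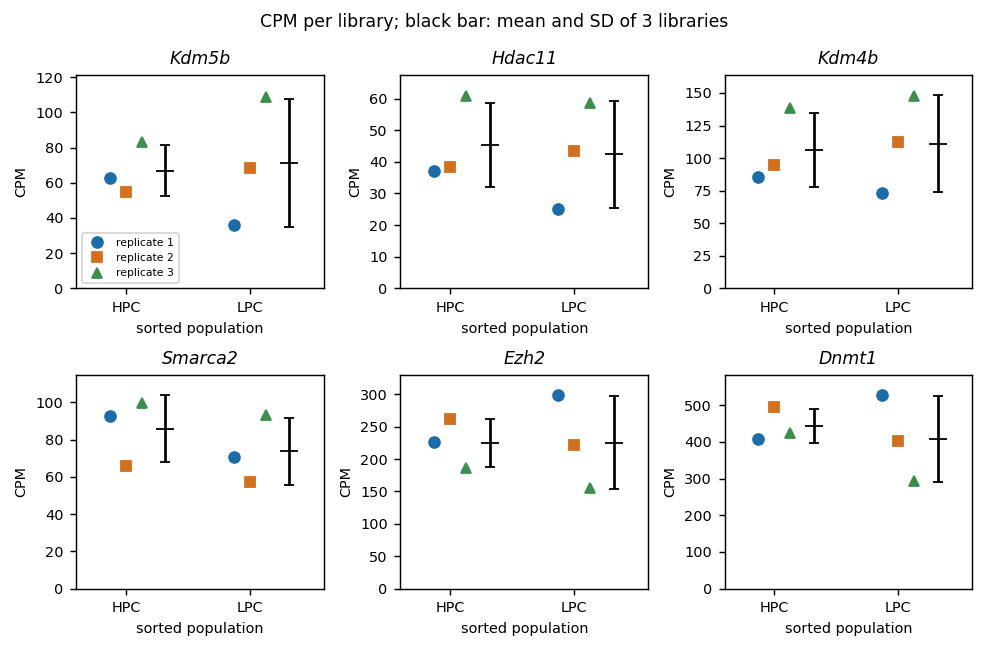
CPM of Kdm5b, Hdac11, Kdm4b, Smarca2, Ezh2 and Dnmt1 in the HPC and LPC libraries, with 1 symbol per replicate number and black bars for the mean and SD of 3 libraries. Kdm4b and Hdac11 are highest in number 3 in both populations, and Dnmt1, which was not called for the number, is highest in number 2 in HPC and number 1 in LPC.

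Genes that work with these enzymes were compared from a separate list of partners, writers and readers. Of 77 rows 73 were tested, 38 positive and 35 negative with a median of 0.01. None was called by edgeR with or without the block or by DESeq2 without the block, and 1, Kat2b, passed an unadjusted p under 0.05 by edgeR without the block, where 9.37% of all genes did. The blocked edgeR fit passed 4 higher and 4 lower in HPC at that threshold, beside 18.8% of all genes. The populations did not overlap in 4 genes higher and 6 lower in HPC, beside 14.3% of all genes. Kat2b, which encodes the acetyltransferase PCAF, had a log2 fold change of 0.31 (adjusted p 0.51 by edgeR without the block). Kat5, the TIP60 acetyltransferase gene, had -0.31. Among corepressor partners of deacetylases, the values ran from -0.28 (Rcor2) to 0.28 (Sap30). Other SWI/SNF subunit genes with a mean of at least 5 CPM ran from -0.31 (Bcl7c) to 0.33 (Dpf1). Srcap, the motor of a complex that deposits the histone variant H2A.Z, had 0.42 and Ruvbl2, a helicase of the same complexes, -0.27. PRC2 accessory genes ran from -0.34 (Jarid2) to 0.18 (Aebp2), and DNA methylation genes from -0.14 (Uhrf1, the partner of Dnmt1) to 0.23 (Mbd4).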

How the data were processed

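RNA from 3 HPC and 3 LPC samples was made into QuantSeq 3' mRNA-Seq FWD libraries, which read transcript ends, per the labels' protocols. STAR and GRCm38 are named per the submitters' processing notes. For the counting program, the annotation, strand and molecular identifiers the entry is the same: not given in the sources used here. Raw counts per gene, not normalized, were deposited by the authors. Without molecular identifiers, PCR copies are not independent molecules.

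From the deposited counts, genes were filtered with filterByExpr (11921 left), scaled by TMM and tested in edgeR 4.0.16 (R 4.3.3) by the quasi-likelihood F-test, with the population as sole term and 4 residual degrees of freedom. P-values were adjusted over all 11921 genes by Benjamini-Hochberg, and each log2 fold change is HPC over LPC. SE and unadjusted 95% intervals came from the F statistic. CPM used TMM factors, except marker and Tyr levels, which used library size. Pair differences used log2 CPM with a prior count of 2. The tests were checked on simulated data. The simulated counts held no replicate number effect, so they cannot check the blocked fits where such an effect is present. Coordinates are from GENCODE M21 on GRCm38, which held 83 of the 84 identifiers, and promoter windows are from RefSeq on GRCm38.p6.

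The populations share replicate numbers. Deviations from the group means correlated at 0.42, 0.35 and 0.65 between libraries numbered 1, 2 and 3, all over the minimum of 0.1 (of the pairs with unequal numbers, HPC 2 with LPC 1 also exceeded it, at 0.20), so the pairing rests on the data, since the labels do not state it. Because 3 deviations from a mean sum to 0, some correlation can arise without true pairs. With the block, 2 residual degrees of freedom remain, and 1 when a pair is left out.

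Genes were named by rule: members called in edgeR with or without the block or in DESeq2, the 6 with the smallest p in each direction, 10 core genes, the extremes of each role group and of each partner list (mean CPM of at least 5). Other members are named as counts require. The members and lists were chosen with earlier results of these data known. Alternatives were other scalings and filters, DESeq2 1.42.0, limma-voom (limma 3.58.1), removal of a length and GC trend, the block, and leaving out libraries.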

Additional observations from a re-analysis of the deposited data

How the results depend on the processing

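The number of all genes called was 5, and it was 28 with no filter, 224 by DESeq2, 301 with the replicate block, 356 with the block and the length and GC trend removed, 500 by DESeq2 with the block, 0 to 43 with 1 library left out, and under the block 2947, 0 and 196 without pairs 1, 2 and 3. Members called numbered 0, and 2 by DESeq2, with the replicate block, with the block and trend removal, and by DESeq2 with the block, and 0 with any 1 library left out; under the block 12, 0 and 1 were called without pairs 1, 2 and 3. Beside the 12 members called without pair 1 stood 2947 of all genes. Members at an unadjusted p under 0.05 by edgeR numbered 3 (9.37% of all genes), and 9 under the replicate block (18.8% of all genes). They numbered 7 with the block and trend removal and 2 to 5 with 1 library left out. With 1 pair left out under the block they numbered 3 to 18. For the fits with trend removal or with libraries or pairs left out, the share of all genes at that threshold was not counted. Those counts are therefore not a result about the members. The median log2 fold change of the members, -0.01, ran from -0.019 to 0.034 with 1 library left out and from -0.026 to 0.050 with 1 pair left out under the block. Members differing with replicate number numbered 1 by edgeR and 5 by DESeq2. With the length and GC trend removed, the role medians were -0.050 for CHD (0.048 otherwise), -0.033 for SETD (0.022) and -0.10 for DNA methylation (0.0074). The leave-out fits with the block have 1 residual degree of freedom.

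Of the named genes' values under alternatives, 776 kept their direction and side of the threshold, 24 passed it newly in the same direction and 60 changed sign, of which 2 were called in the new direction, Uhrf1 and Ezh2 in the blocked fit without pair 1; the changes of sign were in genes with a log2 fold change between -0.14 and 0.11, none of which was called by edgeR without the block. The replicate block gave 0.013 for Kdm5b, 0.0071 for Tet1 and 0.032 for Ezh2, and changed no call other than those of Chd7 and Chd9. DESeq2 with the block gave 0.024, 0.014 and 0.037 for these genes, and limma-voom 0.026, 0.025 and 0.032. With no filter Ezh2 was 0.0059. With the length and GC trend removed, Setd7 was -0.033, Chd4 -0.032, Smarcad1 -0.0079, Arid5b -0.059 and Tet2 -0.082. With the replicate block as well they were -0.044, -0.031, -0.013, -0.059 and -0.067, and Ezh2 was 0.026. Leaving out 1 library gave -0.074 to 0.34 for Dnmt1, -0.056 to 0.17 for Suz12, -0.41 to 0.21 for Uhrf1, -0.059 to 0.16 for Setd7, -0.0065 to 0.083 for Chd4, -0.18 to 0.0071 for Setd4, -0.0095 to 0.19 for Smarcad1, -0.068 to 0.14 for Sirt3, -0.059 to 0.15 for Arid5b, -0.40 to 0.35 for Kdm5b, -0.11 to 0.14 for Arid1a, -0.13 to 0.24 for Tet2, -0.16 to 0.15 for Smarca5, -0.20 to 0.29 for Tet1 and -0.21 to 0.25 for Ezh2. Leaving out 1 pair in the blocked fit gave -0.037 to 0.42 for Dnmt1, -0.044 to 0.25 for Suz12, -0.30 to 0.24 for Uhrf1, -0.21 to 0.021 for Setd4, -0.10 to 0.17 for Smarcad1, -0.072 to 0.21 for Arid5b, -0.34 to 0.23 for Kdm5b, -0.10 to 0.089 for Arid1a, -0.072 to 0.24 for Tet2, -0.10 to 0.17 for Smarca5, -0.11 to 0.23 for Tet1 and -0.081 to 0.26 for Ezh2. The cause of these changes was not tested.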
